A study of Mus musculus with 2 samples.

Results

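The nuclei described here were fibroblast nuclei of the lactating mouse mammary fat pad that held transcripts of Dpp4, Pi16 or Cd55. A nucleus was taken as a fibroblast nucleus when at least 4 of 8 fibroblast genes (Pdgfra, Lama2, Abca8a, Itgbl1, Tnxb, Bicc1, Adgrd1 and Fbn1) had a unique molecular identifier (UMI, the tag that counts 1 captured RNA molecule) and when Pecam1, Ptprc, Trp63 and Adipoq together had at most 1 UMI. Of 20854 nuclei kept, 1694 met this, and 654 of those held at least 2 UMIs summed over Dpp4, Pi16 and Cd55 and are called members below. They made up 3.14% of the kept nuclei and 38.6% of the fibroblast nuclei. A further 306 fibroblast nuclei held 1 such UMI and 734 held none. The last class, called none below, is the one the members were compared with. Members were thus chosen by measured values, and the 15 genes named in the rule carry no test in what follows.

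Nuclei of the inguinal fat pad, with the lymph nodes removed, came from 8 dams, were marked with hashtags, short DNA barcodes that name the animal, and were sequenced as 1 pooled 10x library. Dams were 8 weeks old at breeding, litters were to hold 4 to 5 pups by the labels, and tissue was taken on postnatal day 11 of the litter, so all animals were lactating. The labels name 4 dams that carry a floxed oxytocin receptor gene (Oxtr flox) and 4 dams in which Oxtr is deleted in adipocytes. The hashtags call these WT and Oxtr-KO, WT was taken as the floxed group, and no label names the promoter that drives the deletion. Since the deletion was made in adipocytes, the fibroblasts of both groups keep the gene as far as the labels say. The labels also give 7 litters of 5 pups and 1 litter of 3, which is below that range, as the batch, without tying a litter to an animal, so no result could be split by litter. Of the 654 members, 236 carried the hashtag of 1 named animal, from 21 to 47 an animal with a median of 29. A further 305 had no called hashtag, 108 had more than 1 and 5 had that of an unknown sample. Only nuclei with 1 named animal entered a main test, and the 265 nuclei of the none class that had one served as the other side.

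Fibroblasts of fat depots fall into several kinds. Cells with Dpp4 and Pi16 lie in the sheaths and septa between fat lobules, are known as interstitial progenitors, and can give rise to the more committed preadipocytes that sit near vessels and carry Icam1, Pdgfrb and type IV collagen. In the mammary gland these stromal cells surround the ducts and alveoli, and build the matrix and signals that the epithelium grows in.

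Dpp4 encodes a membrane-bound dipeptidyl peptidase that trims chemokines and hormones, Pi16 encodes a peptidase inhibitor anchored to the cell surface, and Cd55 encodes decay-accelerating factor, which protects cells from complement. The 250 bases before the start of these 3 genes are shown because they define the members, and those of Sema3c because it had the smallest p of the genes outside the rule. They come from the RefSeq table of the build GRCm38.p6, whereas the counts were made on GRCm39, and run 5′ to 3′ on the strand of the gene. They lie at chr2:62412232-62412481 on the minus strand for Dpp4, chr17:29318632-29318881 on the plus strand for Pi16, chr1:130462745-130462994 on the minus strand for Cd55 and chr5:17574566-17574815 on the plus strand for Sema3c. Capitals mark matches on either strand to 6 short motifs, whose letters are given after the sequences.

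Dpp4: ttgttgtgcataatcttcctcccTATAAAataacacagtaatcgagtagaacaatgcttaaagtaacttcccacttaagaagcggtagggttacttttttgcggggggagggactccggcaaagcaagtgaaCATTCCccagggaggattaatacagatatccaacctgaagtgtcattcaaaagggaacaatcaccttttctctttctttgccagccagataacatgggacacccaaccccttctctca
Pi16: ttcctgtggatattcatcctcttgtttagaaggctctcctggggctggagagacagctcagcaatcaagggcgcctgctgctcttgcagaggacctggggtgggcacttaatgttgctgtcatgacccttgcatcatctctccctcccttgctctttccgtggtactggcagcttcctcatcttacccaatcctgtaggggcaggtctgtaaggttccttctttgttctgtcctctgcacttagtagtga
Cd55: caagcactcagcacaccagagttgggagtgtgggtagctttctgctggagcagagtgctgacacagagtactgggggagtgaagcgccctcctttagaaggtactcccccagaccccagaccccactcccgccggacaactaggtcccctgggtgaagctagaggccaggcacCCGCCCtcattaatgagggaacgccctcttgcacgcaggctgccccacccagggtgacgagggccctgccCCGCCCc
Sema3c: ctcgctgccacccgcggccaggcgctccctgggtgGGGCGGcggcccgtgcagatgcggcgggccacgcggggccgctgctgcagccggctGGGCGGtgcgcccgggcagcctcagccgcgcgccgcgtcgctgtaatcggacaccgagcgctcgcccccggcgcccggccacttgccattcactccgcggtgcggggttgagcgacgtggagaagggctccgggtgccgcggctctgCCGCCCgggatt

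The Dpp4 window held the TATA box letters TATAAA at bases 24 to 29 and, on the other strand, the TEAD motif letters GGAATG at bases 133 to 138, counted from the first base shown. Cd55 had 2 matches to the GC box and Sema3c had 3, and the Pi16 window had no match to these letters. GC content was 43.6% in Dpp4, 52.4% in Pi16, 64.0% in Cd55 and 78.4% in Sema3c, against a median of 52.4% over all 32851 windows of the table. Of all windows of the table, 32.7% held the GC box, spelled GGGCGG, 12.4% held the TATA box above and 12.6% held the TEAD motif above. The AP-1 motif, spelled TGANTCA, stood in 6.75% of all windows. The RUNX motif, for which the letters TGTGGT were searched, stood in 14.0% of them, and the cAMP response element, searched as TGACGTCA, in 1.55%. No match shown in capitals overlaps another. Of the named genes tested below, 10 that rose had 14 windows with a median GC content of 68.0%, and 10 that fell had 17 windows with a median of 58.0%. A GC box stood in at least 1 window of 6 of the former genes and 5 of the latter, which are counts over genes and not over windows. None of these windows held the cAMP response element. These matches describe the letters and show no binding.

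Dpp4 (ENSMUSG00000035000.9) was seen in 567 members (86.7%), Cd55 (ENSMUSG00000026399.13) in 435 (66.5%) and Pi16 (ENSMUSG00000024011.18) in 349 (53.4%). At least 2 of the 3 genes were seen together in 487 members (74.5%), and all 3 in 210 (32.1%). By animal, in CPM (the UMIs of the gene among 1000000 UMIs), Dpp4 ran from 409 to 791 with a median of 583, Cd55 from 265 to 524 with a median of 309, and Pi16 from 96.9 to 505 with a median of 206. Every animal thus held members with each of the 3 genes. The highest Pi16 level was in WT replicate 1 and the lowest in WT replicate 3. The defining genes of a fibroblast were present in the members as the rule asks. A UMI of Lama2 (a laminin chain) was seen in 95.6% of members, of Fbn1 (the microfibril protein fibrillin 1) in 93.4% and of Pdgfra (a growth factor receptor of fibroblasts) in 59.8%, against 5.56%, 6.40% and 1.62% of the 19160 kept nuclei outside the fibroblast gate. Median CPM by animal was lower in members than in none for Pdgfra (303 against 728) and Lama2 (1553 against 4057). The same held for Abca8a (370 against 1190), Itgbl1 (491 against 1477) and Bicc1 (716 against 1197). Adgrd1 (500 against 254) and Fbn1 (1523 against 574) were higher in members, and Tnxb was close (474 against 488). These gate genes carry no test.

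The 3 genes differed in how far they were limited to fibroblast nuclei. After each nucleus was thinned to 1500 UMIs, so that depth was equal, Pi16 was seen in 14.8% of 1603 fibroblast nuclei and 0.405% of 17272 other nuclei, Cd55 in 18.9% and 5.37%, and Dpp4 in 28.6% and 9.57%. Before thinning the shares were 23.7% and 1.11% for Pi16, 31.9% and 16.5% for Cd55, and 42.2% and 25.8% for Dpp4, at median depths of 3031.5 and 4496 UMIs. Dpp4 and Cd55 were thus also seen outside fibroblast nuclei, and the part of RNA from other cells in the choice of members was not tested. Members with UMIs of Dpp4 only, of the gene seen most outside the gate, numbered 117 (17.9%). Their levels of Sema3c, Anxa3, Opcml, Gfpt2, Fmo2 and Col4a1 lay between those of the none class and those of members with 2 or 3 of the genes. Sema3c, which encodes a secreted guidance cue, stood at 197 CPM in members with Dpp4 only, 777 CPM in those with Dpp4 and Pi16, and 1518 CPM in those with all 3, against 36.3 CPM in the none class. Fmo2, a flavin monooxygenase, went the other way, at 115 CPM, 37.8 CPM and 4.95 CPM against 174 CPM. The 16 members with Pi16 only and the 34 with Cd55 only are few, with Sema3c at 314 CPM and 183 CPM.

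**Figure D1:**
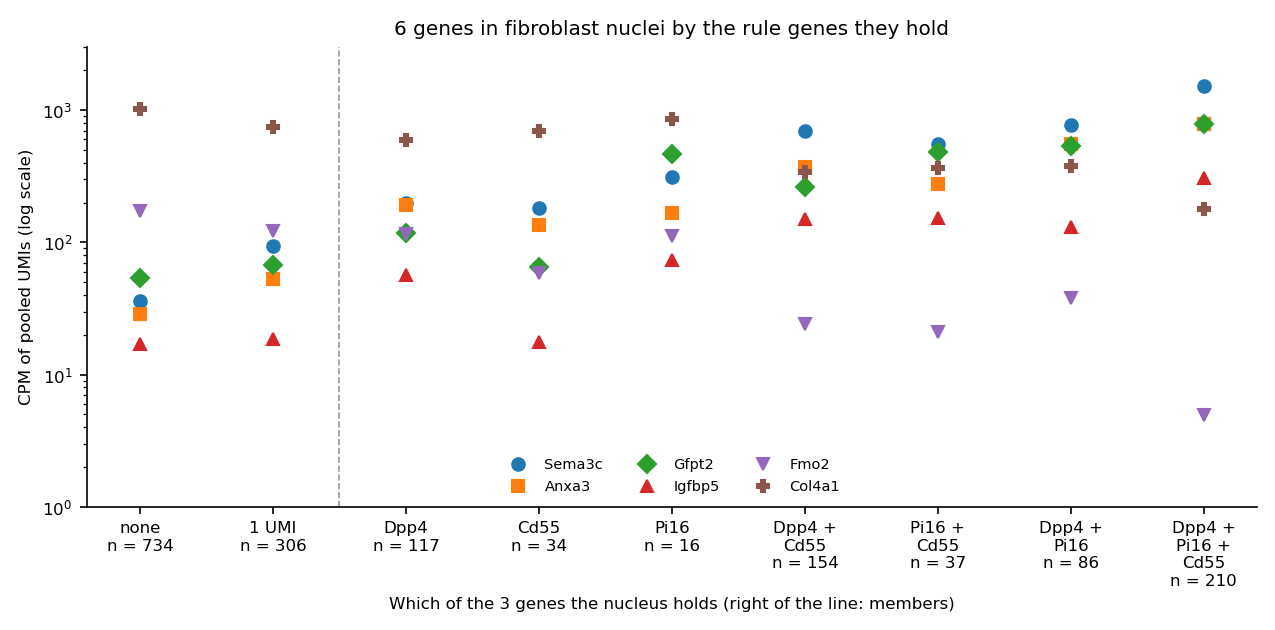
Summed levels, in CPM, of genes outside the rule in members split by which of Dpp4, Pi16 and Cd55 had a UMI, with all nuclei of each combination pooled and no error drawn. Sema3c ran from 183 CPM in the 34 members with Cd55 only to 1518 CPM in the 210 members with all 3 genes. Fibroblast nuclei with none and with 1 UMI of the 3 genes are drawn beside them, with Sema3c at 36.3 and 94.5 CPM.

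Levels of genes outside the rule changed along the count of the 3 genes' UMIs, in steps that differed between genes. Sema3c stood at 36.3 CPM in nuclei with 0 UMIs, 94.5 CPM with 1, 150 CPM with 2, 410 CPM with 3 to 4 and 1299 CPM with 5 or more. Opcml, a cell adhesion protein of the IgLON family, stood at 109, 253, 407, 839 and 1957 CPM over the same classes. Col4a1, a chain of basement membrane collagen, fell over them, at 1021, 742, 755, 421 and 178 CPM. Nuclei just inside the threshold, with 2 UMIs, and just outside it, with 1, were close for some genes, such as Fmo2 at 111 and 121 CPM, and apart for others, such as Anxa3 at 116 and 53.0 CPM and Gfpt2 at 139 and 67.3 CPM. The members were made up of 162 nuclei with 2 UMIs (24.8%), 149 with 3 to 4 and 343 with 5 or more (52.4%). In the nuclei with a named animal alone, Sema3c ran 25.5, 69.6, 113, 299 and 1242 CPM, and Opcml 77.4, 127, 499, 510 and 2040 CPM. There Anxa3 ran 22.5, 32.1, 110, 214 and 680 CPM and Creb5 338, 316, 648, 671 and 2072 CPM. Opcml, Anxa3 and Creb5 thus rose between 1 and 2 UMIs, on 60 nuclei with 2 UMIs. They rose again between 3 to 4 and 5 or more UMIs, so the threshold marked no single break. Over all fibroblast nuclei Creb5 stood at 395, 452, 577, 914 and 2098 CPM. Lsamp, an adhesion protein of the same family as Opcml, did not fall evenly, at 641, 687, 328, 340 and 54.0 CPM, and 195 of its 208 UMIs in members with Pi16 and Cd55 but no Dpp4 lay in 1 nucleus. These levels are pooled over nuclei and carry no test.

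Members were deeper than the nuclei they were compared with. The median was 3490.5 UMIs in members, 3219.5 in nuclei with 1 UMI of the 3 genes and 2625 in the none class. Genes of milk proteins, which fibroblasts do not make, took 10.9% of the members' UMIs and 11.5% of the none class's, against 15.04% in other nuclei. The median mitochondrial share was 0.151% in members and 0.183% in none. More than 1 hashtag was called in 16.5% of members, 6.68% of none and 9.67% of other nuclei. Such nuclei entered the pooled levels and the shares of nuclei with a UMI. They were in no main test, but in the alternative that gave each nucleus to its highest hashtag.

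Over the 8 animals, with the animal as a block, edgeR's quasi-likelihood test called 472 of 7496 genes outside the rule at an adjusted p (Benjamini-Hochberg) of at most 0.05, which is 6.30%. Of these, 239 (3.19%) were higher and 233 (3.11%) lower in members, and the median log2 difference over all genes tested was 0.03. The groups of animals did not overlap for 95 genes (1.27%). The largest rises included Galnt16, Sema3c, Anxa3 and Opcml, and the largest falls Zfp804a, Gpr176 and Lsamp. DESeq2 called 291 of the same genes, 141 higher and 150 lower. With the nuclei of none matched to the members in UMIs within each animal, 194 genes were higher and 188 lower, and with all nuclei thinned to 1500 UMIs 287 of 3430 were called, 131 of them higher. A fit without the milk protein genes, added after the data were seen, called 240 higher and 222 lower. Without WT replicate 1 or WT replicate 4 the number of higher calls was 159 or 153. With members limited to the 126 that had an animal and a Pi16 UMI, also an added alternative, 588 genes were called, 243 higher and 345 lower, and 409 of the 472 calls were kept. With members limited to the 40 nuclei of 6 animals with Dpp4 only, also added, Opcml alone was called (log2 2.78, edgeR adjusted p = 0.0202). In that fit of few nuclei Ugdh, Mfap5, Gpc6, Tgfbr2 and Axl turned lower and Adam12 higher, none of them called.

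Sema3c gave the smallest p of all genes outside the rule. Its level, in CPM scaled by TMM (a factor that evens out library composition) as for all values by animal of the tested genes, ran from 541 to 1155 in members with a median of 652, and from 0 to 38.2 in none with a median of 23.8. The lowest member animal stood above the highest none animal, the log2 difference was 4.83 ± 0.25 (SE, n = 8 animals) and the edgeR adjusted p was 3.62e-14. A UMI of Sema3c was seen in 65.1% of members, 7.22% of none and 8.75% of nuclei outside the gate, and after thinning in 51.8%, 4.85% and 4.27%. Opcml ran from 915 to 1712 with a median of 1265 in members and from 0 to 209 with a median of 71.3 in none, a log2 difference of 4.07 ± 0.31 (edgeR adjusted p = 2.81e-10). Anxa3, a calcium-dependent membrane-binding annexin, ran from 259 to 687 with a median of 388 against 0 to 45.3 with a median of 19.2 (log2 4.23 ± 0.28, edgeR adjusted p = 1.02e-11). For both genes, too, the animals of the 2 classes did not overlap.

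The largest rises by fold were of genes almost absent from the none class. Galnt16, which starts mucin-type sugar chains on proteins, had 194 UMIs in members and 2 in none, a ratio per UMI sequenced of 77.8 with a counting interval of 21.3 to 647. Its level was 73.2 to 276 in members with a median of 129 and 0 to 10.6 in none (log2 5.78 ± 0.45, edgeR adjusted p = 3.37e-10). Car8, a carbonic anhydrase-related protein, had 71 UMIs against 1 (ratio 57.0, interval 9.90 to 2281). These intervals are wide because the none class holds so few molecules, and they cover counting error only. Sytl2, a Rab27-binding protein of vesicle transport, had 45 against 1 (ratio 36.1, interval 6.16 to 1457), Cadm3, an adhesion protein, 49 against 2 (ratio 19.7, interval 5.16 to 167), and Adgrg6, an adhesion receptor coupled to G proteins, 55 against 2 (ratio 22.1, interval 5.82 to 187). Smpd3, which makes ceramide from sphingomyelin, ran from 67.6 to 260 with a median of 114 in members and from 0 to 26.8 with a median of 3.39 in none (log2 4.48 ± 0.42). Its highest value was in WT replicate 1. Arhgef28 had a median of 96.3 against 0 (log2 4.40 ± 0.46), Limch1, an actin- and myosin-associated protein, 169 against 7.88 (log2 4.15 ± 0.37), and Ston2, an endocytosis adaptor, 128 against 12.6 (log2 3.80 ± 0.36). The 15 largest rises were named from genes higher in members in all 8 animals. The classes overlapped for 2 of them, Adamtsl3 and Tmem100.

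**Figure D2:**
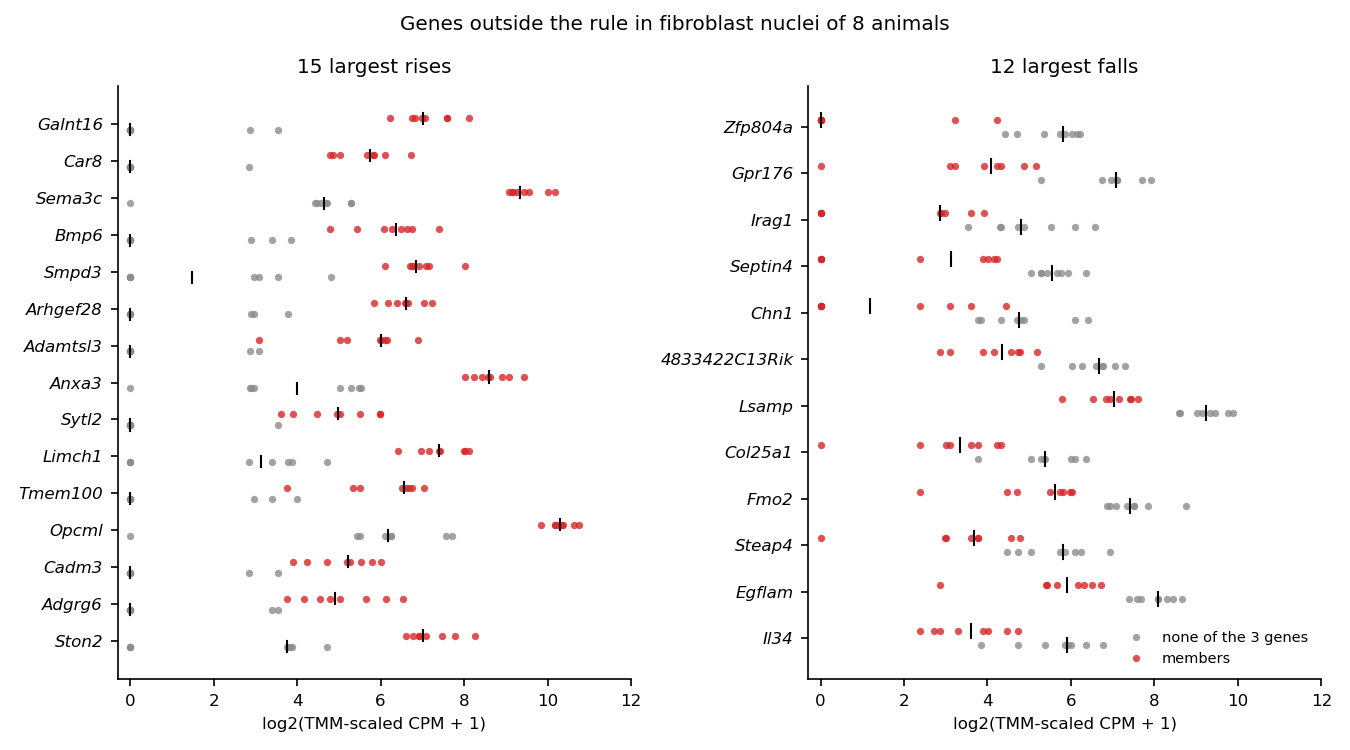
Level of each named gene in each of 8 animals, as log2 of TMM-scaled CPM plus 1, in members (red) and in nuclei with none of the 3 genes (grey), with black bars at the medians, for the 15 largest rises and 12 largest falls. The classes stand apart for 13 of the rises, among them Sema3c (541 to 1155 CPM against 0 to 38.2 CPM), and for 7 of the falls. These genes were picked as called and of 1 direction in all 8 animals, which favours such a split. Over all genes tested the classes stood apart for 1.27%.

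Among the falls, Gpr176, an orphan receptor, ran from 0 to 34.7 in members with a median of 15.9 and from 38.2 to 242 in none with a median of 135, so that the animals did not overlap (log2 -3.05 ± 0.32, edgeR adjusted p = 1.29e-07). Zfp804a, a zinc finger protein, was at 0 to 17.7 against 20.4 to 74.0 (log2 -3.72 ± 0.58), on 4 UMIs in members and 51 in none. Fmo2 ran from 4.19 to 63.7 with a median of 48.5 against 116 to 429 with a median of 171 (log2 -2.19 ± 0.29, edgeR adjusted p = 6.3e-06). Lsamp was lower in the members of every animal, at 54.5 to 196 against 382 to 950 (log2 -2.24 ± 0.24, edgeR adjusted p = 1.92e-07), so that Opcml and Lsamp, both IgLON adhesion proteins, moved in opposite directions. Septin4, a filament-forming GTPase, fell by 2.51 ± 0.50 on the log2 scale and Col25a1, a transmembrane collagen, by 2.22 ± 0.45. The 12 largest falls were named from genes lower in members in all 8 animals.

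A list of 40 genes known from interstitial progenitors of the Dpp4 and Pi16 type, outside the rule, had 32 genes tested. Of these, 26 rose, none fell and 6 did not pass, with a median log2 difference of 1.94 against 0.03 over all genes. This list was chosen with results of these data known, so its direction is a description. Fndc1, a fibronectin domain protein of the matrix, ran from 338 to 662 with a median of 456 in members and from 12.7 to 180 with a median of 49.3 in none (log2 3.11 ± 0.24). Ackr3, a scavenging receptor for the chemokine Cxcl12, had a median of 219 against 37.9 (log2 2.86 ± 0.24), and Igfbp5, which binds insulin-like growth factors, 112 against 13.2 (log2 3.44 ± 0.37). Pcolce2, which helps process procollagen, rose by 3.04 ± 0.41, and Cmah, which modifies sialic acid, by 1.81 ± 0.22, both as log2. The surface proteins Cd34 (log2 1.18 ± 0.29, edgeR adjusted p = 0.00964) and Ly6a (log2 1.91 ± 0.47, edgeR adjusted p = 0.00995), used to sort stromal progenitors, rose by less. The animals of the 2 classes did not overlap for 15 of the 26 genes. The 6 that did not pass were Arl4a (log2 0.64), Scara5 (0.35), Igfbp6 (0.46), Procr (0.64), Tppp3 (0.05) and Clec3b (-0.27), so genes often named beside Dpp4 and Pi16 did not all rise.

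Genes of committed preadipocytes fell more often than they rose. Of 25 listed, 19 were tested, 1 rose, 9 fell and 9 did not pass, with a median log2 difference of -0.92. Pdgfrb, a growth factor receptor of perivascular cells, ran from 42.5 to 146 with a median of 69.1 in members and from 151 to 293 with a median of 233 in none (log2 -1.37 ± 0.22, edgeR adjusted p = 7.39e-05), and the animals did not overlap. Ggt5, an enzyme of leukotriene metabolism, ran from 27.7 to 101 against 115 to 238. Sparcl1, a matrix glycoprotein, fell by 1.96 ± 0.35 on the log2 scale, and Cxcl14, a chemokine, by 1.76 ± 0.43 on that scale. Ebf2, a transcription factor of adipocyte precursors, was the member of this list that rose, from a median of 431 to one of 676 (log2 0.73 ± 0.17, edgeR adjusted p = 0.00723). Genes of adipocyte formation did not pass: Pparg, the master regulator of fat cells, had a log2 difference of -0.57 ± 0.26 (edgeR adjusted p = 0.267), Fabp4, a fatty acid carrier, -0.41 ± 0.34, and Lpl, which frees fatty acids from lipoproteins, -0.08 ± 0.17. Of 12 genes of the Cd142 (F3) type of stromal cell, 5 were tested and 4 fell, with a median of -1.83. Besides Fmo2 these were Crispld2, a secreted protein, with 27.7 to 67.7 in members and 82.8 to 258 in none (log2 -1.83 ± 0.25), F3 itself, the tissue factor of coagulation (log2 -2.09 ± 0.50, edgeR adjusted p = 0.00747), and Mgp, an inhibitor of calcification (log2 -1.39 ± 0.41, edgeR adjusted p = 0.0372). The call of Mgp was lost without any of 5 animals, with adjusted p up to 0.259 without WT replicate 4, and DESeq2 called neither Mgp (adjusted p = 0.125) nor F3 (0.0538).

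**Figure D3:**
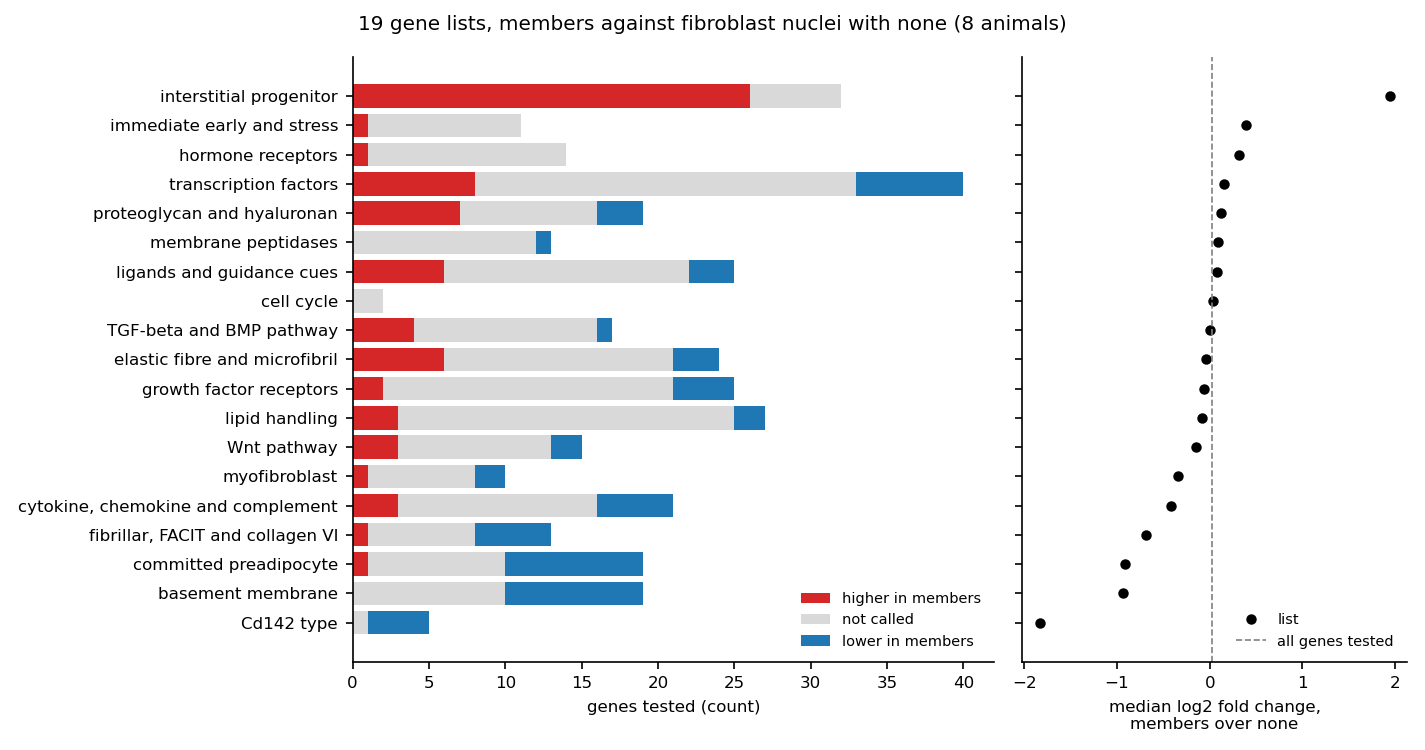
Number of genes of each list, chosen with earlier results of these data known, that were higher, lower or not called in members against nuclei with none of the 3 genes (edgeR, adjusted p at most 0.05). Interstitial progenitor genes were higher in 26 of 32 tested, and basement membrane genes lower in 9 of 19 with none higher. The lists share genes, such as Mfap5 and Col4a1, which are counted in each.

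Ligands and guidance cues moved in both directions, 6 higher and 3 lower of 25 tested. Beside Sema3c, Sema3e had 40 UMIs in members and 1 in none (ratio 32.1, interval 5.44 to 1299) and Sema3d 37 against 3 (ratio 9.90, interval 3.13 to 50.2), whereas Sema3a, of the same family of secreted semaphorins, fell from a median of 355 to one of 95.9 (log2 -1.54 ± 0.31, edgeR adjusted p = 0.00133). Slit2, a repulsive guidance cue, ran from 31.4 to 617 with a median of 254 in members and from 394 to 1100 with a median of 774 in none, which overlapped but was lower in 8 of 8 animals (log2 -1.53 ± 0.25). Its receptor Robo2 fell too (log2 -1.98 ± 0.28, edgeR adjusted p = 1.58e-05), as did the semaphorin receptors Nrp1 (-0.92 ± 0.24) and Nrp2 (-1.99 ± 0.50). Hgf, a growth factor for epithelium made by stroma, fell from a median of 155 to one of 47.0 (log2 -1.67 ± 0.28, edgeR adjusted p = 0.000153). The platelet-derived growth factors Pdgfc (log2 0.96 ± 0.24) and Pdgfd (0.63 ± 0.19) and the netrin Ntn4 (1.15 ± 0.29) rose. Growth factor receptors gave 2 higher and 4 lower of 25 tested. Tek, the receptor of the angiopoietins, ran from 133 to 293 with a median of 210 in members and from 12.7 to 63.7 with a median of 24.0 in none (log2 2.72 ± 0.29, edgeR adjusted p = 1.29e-07), and Axl, the receptor of Gas6, from 138 to 241 against 45.3 to 106 (log2 1.22 ± 0.21). Neither overlapped.

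Of the bone morphogenetic protein and TGF-beta list, 4 of 17 tested genes rose and 1 fell. Bmp6, a secreted ligand, had 107 UMIs in members and 3 in none (ratio 28.6, interval 9.53 to 141), at 26.6 to 166 CPM against 0 to 13.4 CPM (log2 4.49 ± 0.50, edgeR adjusted p = 3.18e-07). Bmp7, too low to be tested, had 20 against 3 (ratio 5.35, interval 1.59 to 28.1). Fstl1, a secreted binder of these ligands, rose by 0.98 ± 0.18, the receptor Tgfbr2 by 0.81 ± 0.17 and Ltbp1, which stores latent TGF-beta in the matrix, by 0.79 ± 0.19, all as log2, while Bmper, which binds BMPs outside the cell, fell by 0.92 ± 0.25 on that scale. The call of Ltbp1 was lost with nuclei thinned to 1500 UMIs (edgeR adjusted p = 0.0923) and with members of at least 1 UMI (0.176). In the Wnt list, with 46 genes of which 15 were tested, Dact1 (log2 1.99 ± 0.58) and Dact2 (2.15 ± 0.57), intracellular modulators, and the ligand Wnt2 (1.49 ± 0.46, edgeR adjusted p = 0.0481) rose. The receptor Ror1 fell from a median of 905 to one of 304 (log2 -1.37 ± 0.20, edgeR adjusted p = 3.09e-05). Tcf4, an E-box binding factor that stood in this list, fell from 1423 to 760 (log2 -0.93 ± 0.17). It is a different gene from Tcf7l2, the Wnt effector often called TCF4. The calls of Dact1 and Dact2 rest on few UMIs and were each lost without any of 3 animals, with edgeR adjusted p up to 0.0797 for Dact1 without WT replicate 3 and 0.0998 for Dact2 without WT replicate 4. The ligand Wnt10b had 14 UMIs in members and 1 in none and was not tested.

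Of 14 hormone receptors tested, only Esr1, the estrogen receptor alpha, passed, at 358 to 686 with a median of 555 in members and 148 to 409 with a median of 324 in none, higher in 8 of 8 animals (log2 0.82 ± 0.16, edgeR adjusted p = 0.0013). The ranges overlapped. The prolactin receptor Prlr had a log2 difference of 0.37 ± 0.25 and the growth hormone receptor Ghr of -0.02 ± 0.18, neither of which passed. Pgr, the progesterone receptor, had 20 UMIs in members and 3 in none, and Esr2, the estrogen receptor beta, 9 and 0. Akr1c18, which breaks down progesterone, had 21 UMIs in members and 0 in none. None of these 3 was tested. Oxtr, the gene deleted in the adipocytes of the Oxtr-KO animals, had 4 UMIs over all members with an animal. These were 2 in WT replicate 1, 1 in Oxtr-KO replicate 2 and 1 in Oxtr-KO replicate 4, a count of 2 a genotype with an exact Poisson interval of 0.242 to 7.22, so that it could not be tested and checks no label here.

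In the matrix, enzymes that supply sugars for hyaluronan and proteoglycans were among the genes that rose. Of 29 proteoglycan and hyaluronan genes 19 were tested, 7 rose and 3 fell. Gfpt2, which feeds glucose into amino sugars, ran from 208 to 897 with a median of 432 in members and from 13.4 to 95.5 with a median of 40.9 in none (log2 3.17 ± 0.22, edgeR adjusted p = 5.04e-11). Ugdh, which makes UDP-glucuronate, ran from 158 to 319 with a median of 228 against 19.1 to 134 with a median of 50.2 (log2 1.97 ± 0.23, edgeR adjusted p = 5.61e-07), and Ugp2, which makes UDP-glucose, from 146 to 310 against 67.1 to 121 (log2 1.11 ± 0.20). None of these 3 overlapped. The hyaluronan synthase Has2 (log2 1.09 ± 0.34, edgeR adjusted p = 0.0472), the hyaluronan-binding proteoglycan Vcan (1.32 ± 0.25), the glypican Gpc6 (0.89 ± 0.15) and the small proteoglycan Aspn (2.15 ± 0.41) rose, and Has1 had 13 UMIs against 1 without a test. Other small leucine-rich proteoglycans fell, namely Lum (log2 -1.23 ± 0.21), Dcn (-1.0003 ± 0.21) and Podn (-1.35 ± 0.40). With nuclei thinned to 1500 UMIs Lum was at -0.64 and no longer called (edgeR adjusted p = 0.248).

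No basement membrane gene rose. Of 19 tested, 9 were lower and 10 did not pass, with a median log2 difference of -0.93. Col4a1 ran from 170 to 662 with a median of 427 in members and from 599 to 1110 with a median of 990 in none (log2 -1.24 ± 0.19, edgeR adjusted p = 3.56e-05), and Col4a2, its partner chain, from 117 to 376 against 389 to 687 (log2 -1.18 ± 0.18). Egflam, or pikachurin, was at 6.29 to 105 against 166 to 403 (log2 -2.14 ± 0.27, edgeR adjusted p = 1.84e-06). The laminin chains Lamb1 (-1.05 ± 0.24) and Lamc3 (-1.65 ± 0.35), perlecan or Hspg2 (-0.73 ± 0.19), the nidogen Nid2 (-1.24 ± 0.32) and Smoc2 (-1.36 ± 0.22), a secreted matrix protein, also fell. Of the fibrillar and related collagens, 5 of 13 tested fell and 1 rose. Col1a1, a chain of type I collagen, fell from a median of 459 to one of 297 (log2 -0.76 ± 0.17, edgeR adjusted p = 0.00478), and the type VI chains Col6a2 (-0.93 ± 0.24) and Col6a3 (-0.69 ± 0.17), Col27a1 (-1.41 ± 0.33) and Col5a3 (-0.70 ± 0.17) fell, whereas Col14a1, a collagen that coats fibrils, rose (0.88 ± 0.25, edgeR adjusted p = 0.0268). The call of Col5a3 was lost without WT replicate 3 (edgeR adjusted p = 0.056). With nuclei thinned to 1500 UMIs the calls of Col1a1 (log2 -0.53, edgeR adjusted p = 0.117), Col6a3 (-0.49, adjusted p = 0.140) and Col27a1 (-1.02, adjusted p = 0.230) were lost. Col3a1 had a log2 difference of -0.26 ± 0.17 and did not pass. Of 10 myofibroblast genes tested, Runx1 rose, Col1a1 and Adam12 fell, and 7 did not pass.

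Elastic fibre genes were mixed, with 6 higher, 3 lower and 15 not passing of 24 tested, and a median of -0.04. Mfap5, a microfibril protein, ran from 257 to 617 with a median of 358 in members and from 89.2 to 381 with a median of 195 in none (log2 0.96 ± 0.18, edgeR adjusted p = 0.00082). Efemp1, a fibulin (0.94 ± 0.21), Emilin2, a glycoprotein of elastic fibres (1.56 ± 0.31), and Adamtsl4, which binds fibrillin (1.57 ± 0.38), rose as well. Mfap5, Efemp1 and Emilin2 also stand in the interstitial progenitor list. Adamtsl3 had 79 UMIs in members and 2 in none (ratio 31.7, interval 8.49 to 266). Fbn2, fibrillin 2, fell (log2 -1.36 ± 0.26, edgeR adjusted p = 0.000852), as did the crosslinking enzyme Lox (-1.46 ± 0.45) and the protease Adamts17 (-1.84 ± 0.54). Fbn1, which belongs to the fibroblast gate and carries no test, ran from 923 to 2223 CPM in members and from 179 to 958 CPM in none.

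Of 40 transcription factors tested, 8 rose and 7 fell. Creb5, of the CREB family, ran from 1160 to 1693 with a median of 1367 in members and from 191 to 476 with a median of 337 in none (log2 2.09 ± 0.18, edgeR adjusted p = 1.72e-09), and Tshz2, a zinc finger homeodomain factor, from 453 to 853 against 95.02 to 309 (log2 1.84 ± 0.20). Neither overlapped. Klf4 (1.66 ± 0.36) and Runx1 (1.15 ± 0.27) also rose, whereas Runx2, a relative of Runx1 best known from bone, fell from a median of 225 to one of 91.9 with no overlap (log2 -1.38 ± 0.21, edgeR adjusted p = 5.41e-05). With nuclei thinned to 1500 UMIs Runx1 was at 0.85 and no longer called (edgeR adjusted p = 0.371). After thinning, a Runx1 UMI was seen in 9.86% of members, 5.44% of none and 33.6% of nuclei outside the gate. Tshz3 fell (-1.07 ± 0.20) while Tshz2 rose. Of 11 immediate early and stress genes, which respond to tissue handling, Jun alone passed (log2 1.65 ± 0.45, edgeR adjusted p = 0.0216), and its call was lost without any of 3 animals, with adjusted p up to 0.120 without WT replicate 1. Only 2 of 24 cell cycle genes were high enough to test, and neither passed.

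Immune signals split as well. Of 21 cytokine, chemokine and complement genes tested, 3 rose and 5 fell. C3, the central complement protein, rose from a median of 3.12 to one of 27.3 (log2 2.27 ± 0.57, edgeR adjusted p = 0.011), and Il18, an interleukin, by 2.45 ± 0.66. Cxcl12, the chemokine that Ackr3 removes, fell from a median of 85.6 to one of 21.7 with no overlap (log2 -1.79 ± 0.34, edgeR adjusted p = 0.000612), so that scavenger and ligand moved in opposite directions. With nuclei thinned to 1500 UMIs Cxcl12 was at -1.42 and missed the threshold (edgeR adjusted p = 0.0557). Il34, a ligand of the macrophage growth factor receptor, fell by 2.14 ± 0.40 on the log2 scale, and the receptors Lifr and Osmr by 0.90 ± 0.18 and 0.99 ± 0.27. Il33, an alarmin, had 31 UMIs in members and 2 in none (ratio 12.4, interval 3.16 to 107) and was not tested. Of 27 lipid genes tested 3 rose and 2 fell. Plpp1, a lipid phosphate phosphatase, fell by 1.12 ± 0.27 on the log2 scale, Acsl1, which activates fatty acids, rose by 0.66 ± 0.20, and Abca9, a transporter, fell by 0.85 ± 0.25. The call of Abca9 was lost without any of 5 animals, with edgeR adjusted p up to 0.129 without WT replicate 4, and that of Plpp1 with nuclei thinned to 1500 UMIs (log2 -0.90, edgeR adjusted p = 0.258). Elovl5, a fatty acid elongase (log2 1.13 ± 0.29, edgeR adjusted p = 0.0137), reached an adjusted p of 0.0892 without WT replicate 3, and Scd1, a desaturase (0.64 ± 0.18, edgeR adjusted p = 0.0277), one of 0.146 without WT replicate 4. All 3 genes that rose were highest outside the gate. After thinning, Elovl5 was seen in 55.3% of nuclei there, 28.5% of members and 17.6% of none, and Scd1 in 50.0%, 39.1% and 33.2%. Acsl1 stood at 2555, 1161 and 854 CPM in pooled UMIs. The part of RNA from other cells in these rises was not tested. Plpp4, of the same family as Plpp1, stood at 6.29 to 266 in members and 0 to 174 in none and did not pass (log2 0.34 ± 0.30, edgeR adjusted p = 0.68). Of 13 membrane peptidases tested, Adam12, a metalloprotease, fell (log2 -1.06 ± 0.29, edgeR adjusted p = 0.0203), a call that was lost without any of 3 animals, with adjusted p up to 0.0987 without Oxtr-KO replicate 4. Fap, a close relative of Dpp4, ran from 310 to 797 in members and from 421 to 846 in none (log2 -0.53 ± 0.18, edgeR adjusted p = 0.0939), so it did not rise with Dpp4.

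Markers of other cell types were summed in each class by animal. Secretory luminal markers took 82177 to 176294 CPM in members with a median of 102999, and a median of 106336 in none. Adipocyte markers had a median of 1782 CPM in members and 1517 in none, most of it from Acsl1 and Ghr, and Lep was at 0. Vascular endothelial markers were higher in members in 8 of 8 animals, at 154 to 345 CPM against 14.97 to 128 CPM, and Tek made up 266 UMIs of them. Without Tek the 7 other markers stood at 6.99 to 87.0 CPM in members and 0 to 115 CPM in none, with 51 and 30 UMIs. Pericyte and smooth muscle markers were lower in 8 of 8 animals, at 72.3 to 238 CPM against 195 to 474 CPM, mostly through Pdgfrb, and Rgs5 was at 0 in members. Without Pdgfrb they stood at 14.5 to 96.9 CPM against 13.4 to 180 CPM. Macrophage markers had a median of 103 CPM in members and 182 CPM in none, mostly through Mertk (112 and 177 UMIs). Lymphatic endothelial (4 of 6), T and NK (3 of 5) and mesothelial markers (5 of 7) were mostly at 0 in members. The part of these low levels in the results for single genes was not tested.

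By genotype, the members' share of the fibroblast nuclei of an animal was 48.0%, 41.2%, 38.1% and 31.4% in WT replicates 1 to 4 and 37.3%, 33.0%, 32.3% and 34.3% in Oxtr-KO replicates 1 to 4. The groups overlapped, since the lowest animal was a WT one. The means were 39.7% ± 6.88 and 34.2% ± 2.24 (SD, n = 4 each), and the difference of -5.41 percentage points had p = 0.229 in an exact two-sided permutation test, which cannot go below 0.0286 with 4 against 4. The share depended on the threshold: it was 31.1% ± 6.98 against 23.8% ± 1.38 with at least 3 UMIs (exact permutation p = 0.0286), and the difference turned to 1.90 points higher in Oxtr-KO with at least 1 UMI (exact permutation p = 0.657). With nuclei thinned to 1500 UMIs, the share was 35.1%, 22.0%, 14.5% and 20.5% in WT replicates 1 to 4. In Oxtr-KO replicates 1 to 4 it was then 14.5%, 18.5%, 21.3% and 14.1%, so the groups overlapped at equal depth. The members' median depth by animal was 3819, 3778, 6585 and 4019 UMIs in WT and 5013, 3354, 4927 and 4108.5 in Oxtr-KO, so the groups overlapped in the depth that the threshold reads. The median mitochondrial share was 0.127% ± 0.0199 in WT and 0.162% ± 0.0195 in Oxtr-KO (exact permutation p = 0.0857).

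No gene passed the test between genotypes in the members. Of 5176 genes tested with edgeR's quasi-likelihood test, 0 were called (0%), 263 had an unadjusted p under 0.05, the smallest adjusted p was 0.688 and DESeq2 called 0. The animals of the 2 genotypes did not overlap for 144 genes (2.78%). In the none class, 0 of 4413 were called, with 162 at an unadjusted p under 0.05 and 107 (2.42%) without overlap, and the difference between the genotype effects of the 2 classes passed for 0 of 7507, with 271 at an unadjusted p under 0.05. None of the 19 gene lists held a gene called between genotypes in members.

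Most of the 6 genes of smallest p between genotypes are known from the secretory epithelium or from fat metabolism, and all 6 were lower in Oxtr-KO. Btn1a1, the butyrophilin of milk fat globules, stood at 472, 773, 531 and 415 in WT members and 280, 288, 204 and 270 in Oxtr-KO members (log2 -1.06 ± 0.24, edgeR adjusted p = 0.688). The animals did not overlap, in a gene picked for its small p. G0s2, an inhibitor of fat breakdown, stood at 769, 1422, 525 and 576 against 387, 436, 322 and 207 (log2 -1.28 ± 0.30, edgeR adjusted p = 0.688), and Atp2b2, the calcium pump of milk secretion, at 1058, 1378, 1349 and 752 against 678, 525, 631 and 527 (log2 -0.94 ± 0.23, edgeR adjusted p = 0.688). Again no Oxtr-KO animal reached the lowest WT animal. In the nuclei outside the fibroblast gate, Btn1a1 stood at 902 ± 274 CPM in WT and 548 ± 160 CPM in Oxtr-KO (SD, n = 4 each), G0s2 at 1705 ± 678 and 802 ± 219, and Atp2b2 at 2104 ± 547 and 1539 ± 509, so each was higher there than in members and also lower on average in Oxtr-KO, which was not tested there. The other 3 genes stood closer between genotypes outside the gate than in members, at 133 ± 16.2 and 113 ± 37.3 CPM for G6pdx, 113 ± 88.0 and 88.2 ± 36.1 CPM for Pip, and 73.4 ± 26.2 and 60.3 ± 19.1 CPM for D730002M21Rik. In the none class, WT and Oxtr-KO means were 313 ± 148 and 246 ± 113 CPM for Btn1a1 (SD, n = 4 each). G0s2 stood there at 760 ± 397 and 294 ± 124, and Atp2b2 at 626 ± 269 and 546 ± 394. G6pdx was at 49.1 ± 38.0 and 42.1 ± 15.5, and Pip at 87.2 ± 115 and 60.3 ± 29.3. D730002M21Rik was higher in Oxtr-KO there, at 18.0 ± 7.30 in WT and 26.8 ± 21.6 in Oxtr-KO. The share of milk protein genes among members' UMIs was 9.68%, 17.3%, 10.2% and 10.6% in WT and 9.85%, 14.6%, 7.92% and 9.85% in Oxtr-KO. The part of free RNA in these 6 genes' values was not tested.

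Pip, a secreted protein of glandular epithelium, stood at 159, 26.3, 47.7 and 28.1 in WT and 22.4, 7.39, 0 and 6.28 in Oxtr-KO members, its difference resting much on WT replicate 1 (log2 -2.86 ± 0.72, edgeR adjusted p = 0.688). G6pdx, which makes NADPH for fat synthesis, stood at 71.1, 70.2, 81.7 and 141 against 33.6, 36.9, 18.5 and 31.4 (log2 -1.56 ± 0.39, edgeR adjusted p = 0.688). D730002M21Rik, an unnamed transcript, stood at 79.4, 43.9, 68.1 and 42.2 against 22.4, 7.39, 18.5 and 0 (log2 -2.20 ± 0.55, edgeR adjusted p = 0.688). Plpp4 stood at 46.0, 263, 191 and 42.2 against 33.6, 29.6, 6.18 and 62.8, with overlap (log2 -1.91 ± 0.59, edgeR adjusted p = 0.85). Outside the gate Plpp4 was at 289 ± 157 CPM in WT and 102 ± 55.8 CPM in Oxtr-KO (SD), which was not tested there. Ugdh, which separated members from none, did not pass between genotypes, at 288, 316, 163 and 169 against 157, 266, 192 and 257 (log2 -0.12 ± 0.27, edgeR adjusted p = 0.987). With no filter on low counts, 16 genes were called, Btn1a1, G0s2, Pip and Plpp4 among them, and Car3 and Prkar2b, which are adipocyte genes, led the list with 100 and 37 UMIs in Oxtr-KO replicate 2. The summed macrophage markers stood at 50.5, 80.3, 69.2 and 90.9 CPM in WT members and 126, 116, 188 and 122 CPM in Oxtr-KO members, without overlap. They were named after all marker lists were seen, no other list separated the genotypes, and no test was run. Mertk gave 112 of their UMIs, and stood at 88.0 CPM in members, 173 CPM in none and 97.6 CPM outside the gate. Mrc1 (2 UMIs), Adgre1 (1), Csf1r (3) and Cd163 (2) were near absent, so these values mostly describe Mertk.

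**Figure D4:**
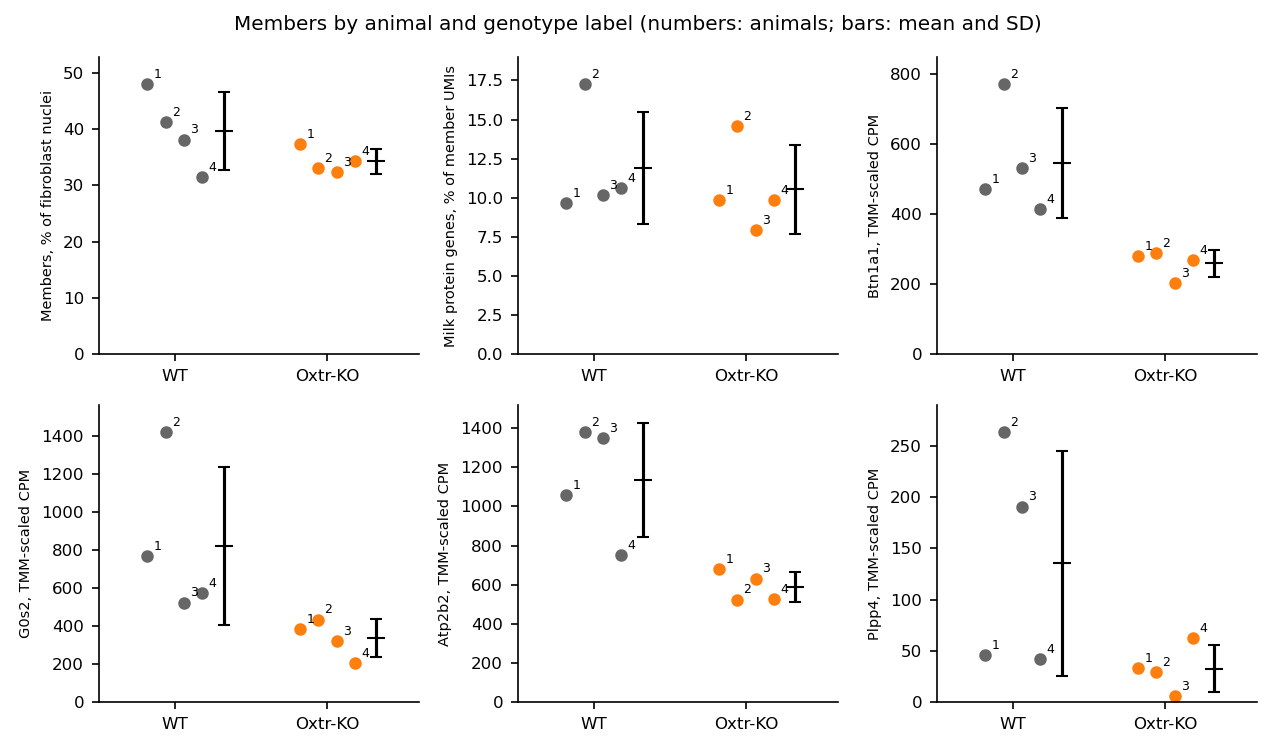
Values of the members by animal (numbered points) and genotype label with mean and SD (n = 4 each): members as % of fibroblast nuclei, milk protein genes as % of member UMIs, and Btn1a1, G0s2, Atp2b2 and Plpp4 in TMM-scaled CPM. Btn1a1 had the smallest p of 5176 genes tested between genotypes and was not called (edgeR adjusted p = 0.688). Picked in this way, it was at 415 CPM or more in WT and 288 CPM or less in Oxtr-KO. Over all genes tested, the animals of the 2 genotypes did not overlap for 2.78%. The share of members overlapped.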

How the data were processed

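The authors deposited raw UMI counts per gene and nucleus, not normalized, in 1 matrix of 21805 barcodes, 33943 genes and 107910356 UMIs, and the read count behind each hashtag UMI. Fastp, Cell Ranger 7.2.0 and GRCm39 are named in the submitters' processing notes, and neither their order nor the annotation release is given in these sources. Deposited symbols, barcodes and hashtag names joined the tables. The labels' protocols mention a wash of some samples' nuclei against free RNA without naming them. All animals share 1 library, and p-values measure the spread between animals.

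Barcodes below 500 UMIs or 300 genes, or with a mitochondrial share of 5% or more, were dropped (951). HTODemux (Seurat 5.3.0, centred log ratios, positive quantile 0.99) gave each nucleus its animal. Barcodes with more than 1 hashtag, taken as doublets, entered no main test, and no other doublet caller was run. Doublets within an animal are not seen. UMIs were summed per animal and class (members 124553 to 237822 UMIs, none 74649 to 164345) where it held at least 5 nuclei. Genes with at least 40 UMIs over all sums were tested with edgeR 4.0.16 in R 4.3.3 (TMM, quasi-likelihood, Benjamini-Hochberg, threshold 0.05), with the animal as a block between classes and no block between genotypes. The 15 rule genes stayed in the fit and out of the calls. DESeq2 1.42.0 was an alternative, beside other scalings, filters, thresholds, thinned or UMI-matched nuclei and each animal left out. The comparison of members with none was tried on simulated counts with the same dispersion for all genes. It recovered 41.4% of 2-fold and 92.9% of 4-fold changes, with 9 false calls. The tests between genotypes were not simulated. Shares were compared by exact permutation over animals (scipy 1.17.1). Levels in CPM are UMIs in 1000000 UMIs of the class, and values by animal of tested genes are TMM-scaled.

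The genes named are, of genes called with the same direction in every animal and at least 20 CPM in the higher class, the 15 largest rises and 12 largest falls, the 4 genes of smallest p of each of 19 lists, Plpp4, Ugdh and Oxtr, and the 6 genes of smallest p between genotypes. Other genes were named after their values were seen. The members, gene lists and marker lists were chosen with earlier results of these data known. The gene lists share genes, among them Gfpt2, Ugdh, Dact2, Wnt2, Mfap5 and Col4a1, so their counts are not separate results. Same-numbered WT and Oxtr-KO animals were not taken as pairs.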

Additional observations from a re-analysis of the deposited data

Results flagged for a closer look

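Of 110 groups of 4 or 8 animals, 15 held an animal whose value stood far from the others by Dixon's gap criterion, and chance gives about 1 in 20, or 5.5. The median depth of members was 6585 UMIs in WT replicate 3 against 3778 to 4019 in the other WT animals, and the share of milk protein genes was 17.3% in WT replicate 2 against 9.68% to 10.6%. Among genes compared within WT, G6pdx stood at 141 CPM in WT replicate 4 against 70.2 to 81.7, and Pip at 159 CPM in WT replicate 1 against 26.3 to 47.7.

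Among genes compared over all 8 animals, WT replicate 1 stood apart for Smpd3 (260 CPM against 67.6 to 142) and Gfpt2 (897 CPM against 208 to 510), and WT replicate 2 for Zfp804a (17.7 CPM, on 2 UMIs, against 0 to 8.38). Oxtr-KO replicate 2 stood apart for Col5a3 (496 CPM against 250 to 356), Col6a3 (466 CPM against 208 to 325), Ltbp1 (444 CPM against 208 to 304) and Fap (797 CPM against 310 to 518). Oxtr-KO replicate 4 did so for Mgp (82.7 CPM against 0 to 33.8), Fbn2 (185 CPM against 8.86 to 84.5) and Sema3e (89.1 CPM against 0 to 39.4), and Oxtr-KO replicate 1 for Robo2 (343 CPM against 25.2 to 158).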

How the results depend on the processing

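The number of genes called between members and none was 472 (239 higher and 233 lower) and came to 291 (141 and 150) with DESeq2, 306 (145 higher) with edgeR's filterByExpr, which tested 2679 genes, and 287 (131 higher) with nuclei thinned to 1500 UMIs. It came to 1286 (712 and 574) with each nucleus given to its highest hashtag, an alternative added after the data were seen, and 1 (1 and 0) with members of Dpp4 only, also added. Leaving out each animal in turn gave 328 to 609 calls, 153 to 320 higher and 162 to 289 lower. The count without the replicate block of the animal was 228 higher and 239 lower. Of 1674 alternative values of the 74 called genes named by the rule, 1556 kept direction and call, 112 kept the direction but not the call and 6 reversed, all with members of Dpp4 only: Mfap5 -0.0200, Ugdh -0.33, Gpc6 -0.0161, Tgfbr2 -0.0927, Axl -1.28 and Adam12 0.37. Uncalled Plpp4 turned to -0.18 there, and Pola1 to -0.26 with the highest hashtag, with -0.23 (without Oxtr-KO replicate 1) to 0.63 when animals were left out. Between genotypes, no filter gave 16 calls in members, 8 in none and 2 in the difference between them, the highest hashtag 0, 2 and 8, and leaving out each animal 0 in members, 0 in none and 0 to 2 in the difference (2 without Oxtr-KO replicate 3). Ugdh between genotypes turned to 0.54 with the highest hashtag and ran from -0.25 to 0.0311 with animals left out, turning without WT replicates 1 and 2 and Oxtr-KO replicate 1. The difference in the share of members turned to 1.90 points with at least 1 UMI, was -7.31 with at least 3, and ran from -8.17 to -2.64 with animals left out. That in depth, -200 UMIs, turned to 211 with at least 1 UMI, 479 without WT replicate 3 and 133 without Oxtr-KO replicate 2 (range -457 to 479), and that in the mitochondrial share was 0.0325 points with at least 1 UMI (exact permutation p = 0.0286) and 0.0269 to 0.0424 with animals left out. With the replicate number as a block, 0 genes were called in members and 0 in none. Deviations of same-numbered animals had r = -0.008, 0.040, 0.325 and 0.106 in members and 0.158, -0.007, -0.046 and 0.210 in none. For animals of different numbers r ran from -0.368 to 0.253 in members and from -0.267 to 0.191 in none. These few values do not settle whether the numbers pair the animals, and no pairing was assumed. The cause of these shifts was not tested. Hashtag calls by a ratio rule were not run because too few nuclei were left. Depth limits what was seen of genes below 40 UMIs.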
